A study of Mus musculus with 12 samples.

Results

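The genes described here encode 10 enzymes and helper proteins that turn membrane arachidonic acid into leukotrienes and prostanoids: Pla2g4a, Alox5ap, Alox5, Lta4h, Ltc4s, Ptgs1, Ptgs2, Hpgds, Tbxas1 and Ptges. They were chosen by symbol, and 9 of the 10 had a probe set that the platform annotation pairs with that symbol alone, among 19938 genes measured in this way. No probe set was paired with Ptgs1, so its level was not analysed here. Each of the 9 had 1 probe set. Expression was measured on 12 oligonucleotide arrays of bone marrow derived mast cells, grown from marrow of female mice aged 4 to 6 weeks in medium with interleukin 3 (10 ng/ml) and stem cell factor (12.5 ng/ml). The 4 groups, of 3 arrays each, were wild type C57BL/6 cells at 2 weeks of culture, ACKR2-/- cells (also labelled D6-/-, strain C57BL/6) at 2 weeks, and the same 2 genotypes at 10 weeks. ACKR2 is an atypical chemokine receptor that removes inflammatory CC chemokines. Per the labels' protocols the cultures look homogeneous from 4 weeks on, and some 2-week cultures were enriched on CD117 columns, without saying which. The arrays of a group are called biological replicates, but no animal or culture is named for them, so p-values measure the spread between these arrays.

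Eicosanoid synthesis begins when cytosolic phospholipase A2 frees arachidonic acid from membranes. In the leukotriene branch, 5-lipoxygenase, presented with its substrate by the protein FLAP, makes leukotriene A4, which leukotriene A4 hydrolase turns into leukotriene B4 or leukotriene C4 synthase joins to glutathione. In the prostanoid branch, the cyclooxygenases make prostaglandin H2, which terminal synthases turn into prostaglandin D2, prostaglandin E2 or thromboxane A2. Activated mast cells are known for releasing leukotriene C4 and prostaglandin D2.

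Values are log2 signals, so a difference of 1 is a doubling, and signals of different genes are not compared. The arrays did not all match their labels. The mean of 11 mast cell markers, among them Kit, Fcer1a and Cpa3, lay between 11.57 and 12.45 on 8 arrays: all 6 from 10 weeks, and arrays 1 and 2 of wild type at 2 weeks. On array 3 of that group the mean was 6.89, and in the ACKR2-/- group at 2 weeks it was 6.93, 6.90 and 6.79. On these 4 arrays Fcer1a, which marks mast cells and basophils, read at most 5.47, against at least 13.74 elsewhere. B cell markers (5 genes) averaged 10.05, 10.20, 10.17 and 12.93 on the same 4 arrays, in that order, and T and NK cell markers (7 genes) averaged 11.14, 11.03, 11.05 and 8.24. The other 8 arrays reached no more than 6.78 and 6.99 for these lists. The 4 arrays also had low Xist, at most 6.23, and high Kdm5d, a Y-linked gene, at least 10.06, although the labels give female mice. Ackr2 itself read 8.16 to 8.35 on the ACKR2-/- 10-week arrays and 7.88 to 8.35 on wild type ones, and 7.79 to 9.43 against 8.19 to 8.38 at 2 weeks. It was not lower in the knockout, and which part of the gene was deleted is not given in the sources used here, so this probe set does not check the genotype. Groups are therefore the arrays labelled with a genotype and time, and results that use the 2-week arrays are given with and without wild type array 3 where that can be done. In bulk RNA such as this, fewer cells of a type and less RNA per cell cannot be told apart.

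Pla2g4a, which encodes cytosolic phospholipase A2, read 10.48 and 10.27 on wild type 2-week arrays 1 and 2 and 8.70 on array 3. It read 8.23, 8.16 and 8.18 on the ACKR2-/- 2-week arrays, 10.49, 10.04 and 9.95 on the wild type 10-week arrays and 10.28, 10.46 and 10.68 on the ACKR2-/- 10-week arrays. The 4 arrays low in mast cell markers were the 4 lowest, and the 10-week groups overlapped.

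Alox5, which encodes 5-lipoxygenase, had the widest separation of the 9 genes. It read 13.68 and 13.70 on wild type 2-week arrays 1 and 2, and 7.45 on array 3. The ACKR2-/- 2-week arrays read 7.33, 7.34 and 7.18. At 10 weeks it read 13.65, 13.49 and 13.54 in wild type and 13.66, 13.43 and 13.57 in ACKR2-/-. The gene was thus at 1 of 2 levels on every array, and the 6 arrays labelled 10 weeks lay within 0.22 of each other, a narrower range than that of all but 4.96% of the 19938 genes.

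Alox5ap, which encodes FLAP, split the arrays in the same way but was not as low on the 4. It read 12.88 and 13.17 on wild type 2-week arrays 1 and 2 and 10.40 on array 3, then 10.62, 10.56 and 8.80 on the ACKR2-/- 2-week arrays. ACKR2-/- 2-week array 3, with the lowest Alox5ap signal of all 12, was also the one of the 4 with most B cell and least T and NK cell marker signal. At 10 weeks it read 12.91, 13.16 and 12.96 in wild type and 13.15, 12.95 and 13.09 in ACKR2-/-, a range of 0.26 that only 8.15% of genes undercut.

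Both enzymes that use leukotriene A4 varied more among the 10-week arrays. Ltc4s, encoding leukotriene C4 synthase, read 9.67, 9.14 and 7.54 on the wild type 2-week arrays, 7.72, 7.44 and 7.39 on the ACKR2-/- 2-week arrays, 10.04, 9.50 and 9.66 on the wild type 10-week arrays and 8.96, 9.71 and 10.13 on the ACKR2-/- 10-week arrays. Its range over the 6 arrays at 10 weeks was 1.18, wider than that of 91.8% of genes, and ACKR2-/- array 1 was the lowest of them. Lta4h, encoding leukotriene A4 hydrolase, which many blood cells make, read 11.26, 11.11 and 10.39, then 10.43, 10.54 and 9.99, then 11.08, 10.75 and 10.09, then 10.63, 11.30 and 11.28 in the same order of groups. Its lowest 10-week signal, on wild type array 3, lay below the signals of 3 of the 4 arrays low in mast cell markers, so Lta4h did not separate those arrays from the rest.

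In the prostanoid branch, Hpgds, the haematopoietic synthase of prostaglandin D2, read 10.68, 11.02 and 8.45 on the wild type 2-week arrays and 8.34, 8.47 and 8.58 on the ACKR2-/- 2-week arrays. It read 10.85, 10.62 and 10.58 on the wild type 10-week arrays and 10.97, 11.18 and 11.13 on the ACKR2-/- 10-week arrays. The ACKR2-/- arrays at 10 weeks all lay above the wild type ones. Tbxas1, thromboxane A synthase, read 12.03, 11.89 and 9.08, then 8.91, 9.10 and 8.50, then 11.99, 11.78 and 11.81, then 11.91, 12.16 and 12.18. As for Hpgds, the 4 arrays low in mast cell markers were the 4 lowest. Ptges, the inducible prostaglandin E synthase, stayed between 6.80 and 7.41 on all 12 arrays and its groups overlapped in each comparison.

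Ptgs2, the inducible cyclooxygenase, followed neither pattern. At 2 weeks it read 10.40, 9.62 and 8.13 in wild type and 7.95, 8.06 and 6.68 in ACKR2-/-. At 10 weeks it read 10.09, 8.95 and 8.27 in wild type and 8.23, 6.76 and 7.15 in ACKR2-/-. All ACKR2-/- arrays lay below all wild type arrays at both times, though at 10 weeks the nearest arrays read 8.23 and 8.27. Its 10-week range of 3.33 was wider than that of 99.4% of genes, so that among the 9 genes it was the most variable where Alox5 was the least.

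**Figure D1:**
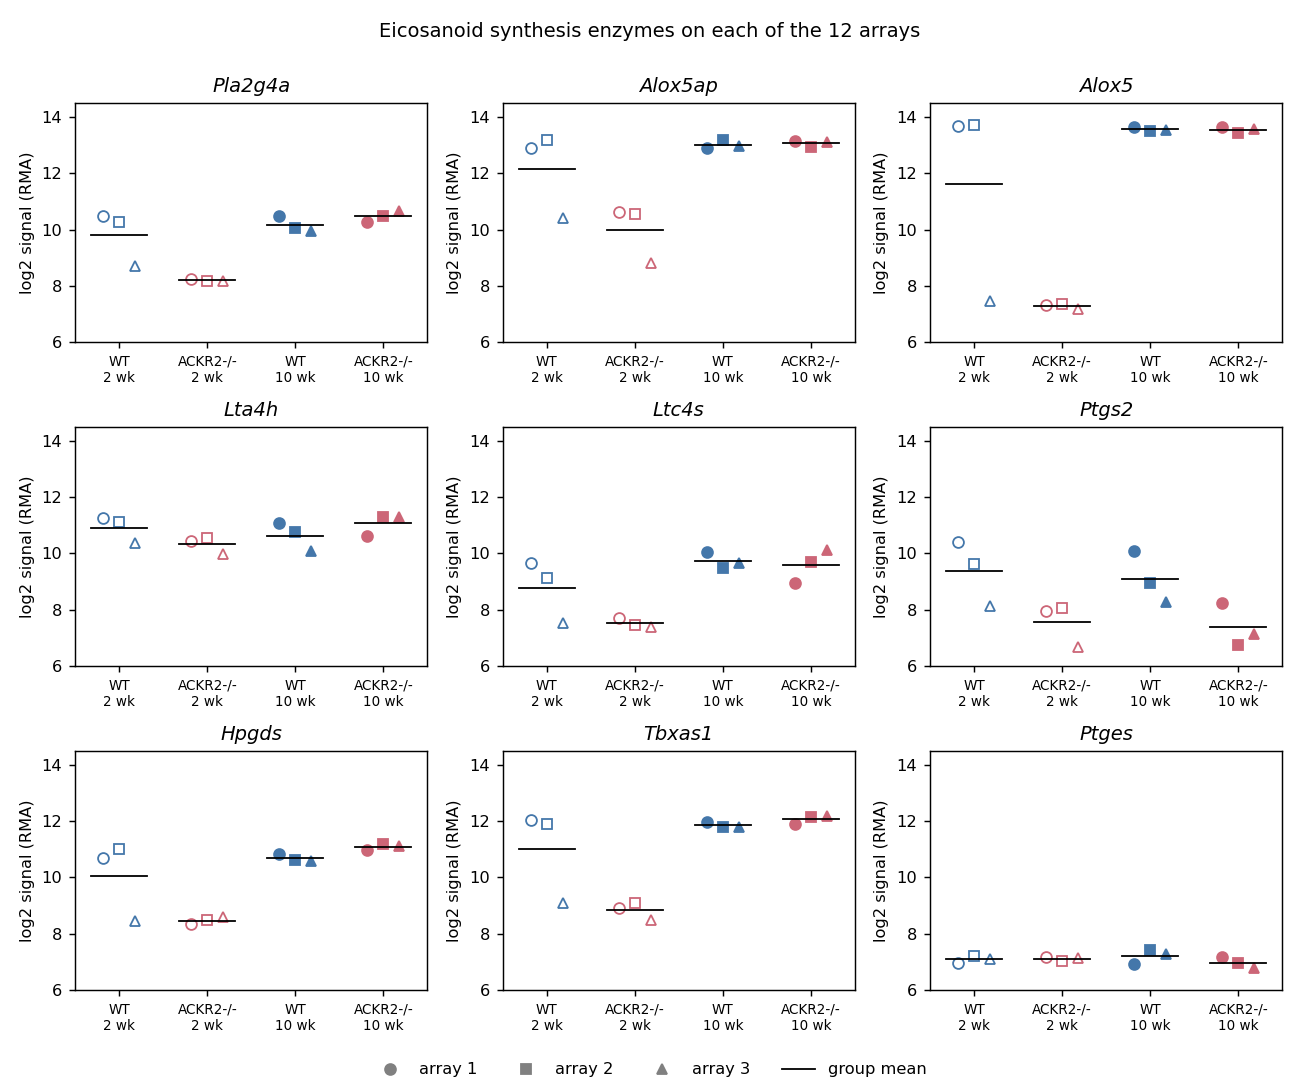
Log2 signal of the 9 measured enzymes on each array, by labelled genotype and week; each point is 1 array (marker shape gives the array number), open points are 2-week arrays and the line is the mean of 3. Alox5 reads 7.18 to 7.45 on wild type 2-week array 3 and the ACKR2-/- 2-week arrays and 13.43 to 13.70 on the other 8, while Ptgs2 spreads from 6.76 to 10.09 within the 10-week arrays alone.

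Sequence just before the start site is shown for 3 enzymes that were higher at 10 weeks on the ACKR2-/- arrays. There is 1 for each step from the release of arachidonic acid to the making of leukotriene C4. The sequences are the 250 bases before the RefSeq start site in assembly GRCm38.p6, where that site is also the outer end of the annotated gene. They are written 5′ to 3′ on the gene's own strand. Alox5 lies on chromosome 6 (chr6:116461179-116461428, minus strand), Pla2g4a on chromosome 1 (chr1:149961291-149961540, minus strand) and Ltc4s on chromosome 11 (chr11:50238533-50238782, minus strand). Capitals mark matches, on either strand, to any of 7 motifs: AGATAA and TGATAA (forms of the GATA site), CATGTG and CACGTG (E-boxes of the kind MITF binds), GGGCGG (the GC box of Sp1), GAGGAA (an ETS core with its flank) and TGTGGT (a RUNX site).
Pla2g4a: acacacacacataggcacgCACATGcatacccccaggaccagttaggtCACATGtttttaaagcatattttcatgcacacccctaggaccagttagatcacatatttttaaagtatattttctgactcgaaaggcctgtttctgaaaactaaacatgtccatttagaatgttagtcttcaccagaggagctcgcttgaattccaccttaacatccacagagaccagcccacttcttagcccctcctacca
Alox5: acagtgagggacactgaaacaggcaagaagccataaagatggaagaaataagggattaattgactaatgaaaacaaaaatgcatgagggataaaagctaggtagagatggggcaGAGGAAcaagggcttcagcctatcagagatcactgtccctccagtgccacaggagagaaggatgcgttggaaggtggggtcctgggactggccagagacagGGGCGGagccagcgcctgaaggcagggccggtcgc
Ltc4s: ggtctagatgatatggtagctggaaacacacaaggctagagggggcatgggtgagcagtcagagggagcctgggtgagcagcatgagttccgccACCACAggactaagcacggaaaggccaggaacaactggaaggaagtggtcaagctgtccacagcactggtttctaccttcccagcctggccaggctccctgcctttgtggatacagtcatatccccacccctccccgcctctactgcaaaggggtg
The matches differ between the 3 windows and none overlaps another. Alox5 has GGGCGG starting 35 bases and GAGGAA starting 136 bases before the start site. Pla2g4a has CATGTG on the other strand at 231 and 202 bases. Ltc4s has TGTGGT on the other strand at 156 bases, in capitals as ACCACA. Over all 32851 windows of this length in the table, 32.7% held GGGCGG, 23.3% GAGGAA, 12.3% CATGTG, 14.0% TGTGGT, 9.99% AGATAA, 7.94% TGATAA and 6.02% CACGTG. Across the 10 windows that 9 of the 10 genes have in the table, 7 held GAGGAA, 3 GGGCGG, 3 TGTGGT, 2 CATGTG and 1 TGATAA, and no window held AGATAA or CACGTG. These are matches of letters, not sites of binding.

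The first comparison asks how the enzymes differ between 10 and 2 weeks on the arrays labelled ACKR2-/-. Of the 9, 6 rose and none fell: Alox5, Tbxas1, Alox5ap, Hpgds, Pla2g4a and Ltc4s. Over all genes, 10.5% were called higher and 6.33% lower, where called means an adjusted p under 0.05 in limma with Benjamini-Hochberg adjustment over 19938 genes. At an unadjusted p under 0.05 stood 7 of the 9 and 30.2% of all genes. The median difference was 2.28 for the 9 enzymes and 0.06 for all genes. The enzymes were listed with earlier results of these arrays known, so the count is a description.

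Alox5 rose from 7.29 ± 0.09 to 13.55 ± 0.11 (SD, n = 3). The log2 fold change was 6.27 ± 1.29 (SE), or 77.0-fold, at a limma adjusted p of 0.0142. By size it ranked 22 among 19938 genes. The SE of each gene pools the spread of all 4 groups, and the SD of the wild type 2-week group was 3.60 for Alox5. Tbxas1 rose by 3.25 ± 0.61 from 8.84 ± 0.31, Alox5ap by 3.07 ± 0.67 from 10.00 ± 1.03, Hpgds by 2.63 ± 0.51 from 8.46 ± 0.13, Pla2g4a by 2.28 ± 0.38 from 8.19 ± 0.04 and Ltc4s by 2.08 ± 0.47 from 7.52 ± 0.18. The limma adjusted p of these 6 lay between 0.0137 and 0.0172, and for each the groups did not overlap. Lta4h also lay higher on every 10-week array (0.75 ± 0.31) but missed the threshold with a limma adjusted p of 0.131. In all, 7 of the 9 had 10-week arrays wholly above the 2-week ones and none wholly below, against 26.7% and 17.7% of all genes. Ptgs2 (-0.18 ± 0.66) and Ptges (-0.14 ± 0.14) had overlapping groups.

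Mast cell markers averaged 6.79 to 6.93 on the 2-week and 11.57 to 12.20 on the 10-week arrays of this comparison, and B cell markers 10.17 to 12.93 and 6.46 to 6.69. Time of culture cannot be told apart here from what else sets the 2-week arrays apart, and no 2-week ACKR2-/- array is left without them. The count fell to 0 without ACKR2-/- 10-week array 2 or array 3. The limma adjusted p of the 6 genes then lay between 0.0555 and 0.0647 or between 0.0584 and 0.0720, and limma called 0 of all genes. At an unadjusted p under 0.05 stood 6 of the 9 in each case, against 24% and 24.2% of genes. These fits kept wild type 2-week array 3, which enters this comparison only through the shared spread. Without that array 6 were called, and 25% of all genes in either direction (14.4% higher, 10.6% lower). The SE of Alox5 was then 0.098, and the limma adjusted p of the 6 genes ran from 6.4e-11 to 0.000291. Without ACKR2-/- 2-week array 2 the count was 5, with Ltc4s at a limma adjusted p of 0.0559, and 6.98% of all genes were called.

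The second comparison asks the same of the wild type arrays, and there the answer turned on 1 array. With all arrays no enzyme was called, and none of the 9 reached an unadjusted p under 0.05. Over all genes limma called 0%, with 6.65% at an unadjusted p under 0.05. Every enzyme had overlapping groups, while 5.29% of genes lay wholly higher and 3.45% wholly lower at 10 weeks. The differences were 1.95 ± 1.29 for Alox5, 0.95 ± 0.47 for Ltc4s, 0.86 ± 0.67 for Alox5ap, 0.86 ± 0.61 for Tbxas1 and 0.63 ± 0.51 for Hpgds (SE). Pla2g4a differed by 0.35 ± 0.38, Ptges by 0.11 ± 0.14, Lta4h by -0.28 ± 0.31 and Ptgs2 by -0.28 ± 0.66. These errors carry the spread of the wild type 2-week group, whose SD was 3.60 for Alox5 against 0.08 at 10 weeks.

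Without the 4 arrays low in mast cell markers, the 2 remaining wild type 2-week arrays and the 3 at 10 weeks had like signals for most of the enzymes. Alox5 differed by -0.13 with a 95% interval from -0.40 to 0.14, Alox5ap by -0.01 (-0.34 to 0.31), Hpgds by -0.17 (-0.51 to 0.18), Tbxas1 by -0.10 (-0.41 to 0.21) and Pla2g4a by -0.21 (-0.65 to 0.23). A 2-fold change, which is 1 on this scale, lies outside each of these 5 intervals. The intervals were wider for Ltc4s (0.33, from -0.44 to 1.09), Lta4h (-0.54, from -1.24 to 0.15) and Ptgs2 (-0.91, from -2.21 to 0.39), and Ptges differed by 0.11 (-0.30 to 0.51). Limma called 0 of the 9 and 0% of all genes in this fit too, and 7.14% of all genes and none of the 9 had an unadjusted p under 0.05. Alox5 and Lta4h lay wholly below at 10 weeks, as did 9.74% of genes. A fit added after seeing the data took the wild type arrays alone, without array 3 of the 2-week group, and used the replicate number as a block. It gave 0.36 ± 0.16 for Ltc4s (limma adjusted p = 0.370) and -0.49 ± 0.16 for Ptgs2 (0.132), again with 0 of the 9 called. These were the 2 enzymes at an unadjusted p under 0.05, against 10.3% of genes, and limma called 315 of the 19938 genes. That fit has 1 residual degree of freedom, and the SE of every enzyme lay between 0.158 and 0.163, so the spread is nearly common to them.

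**Figure D2:**
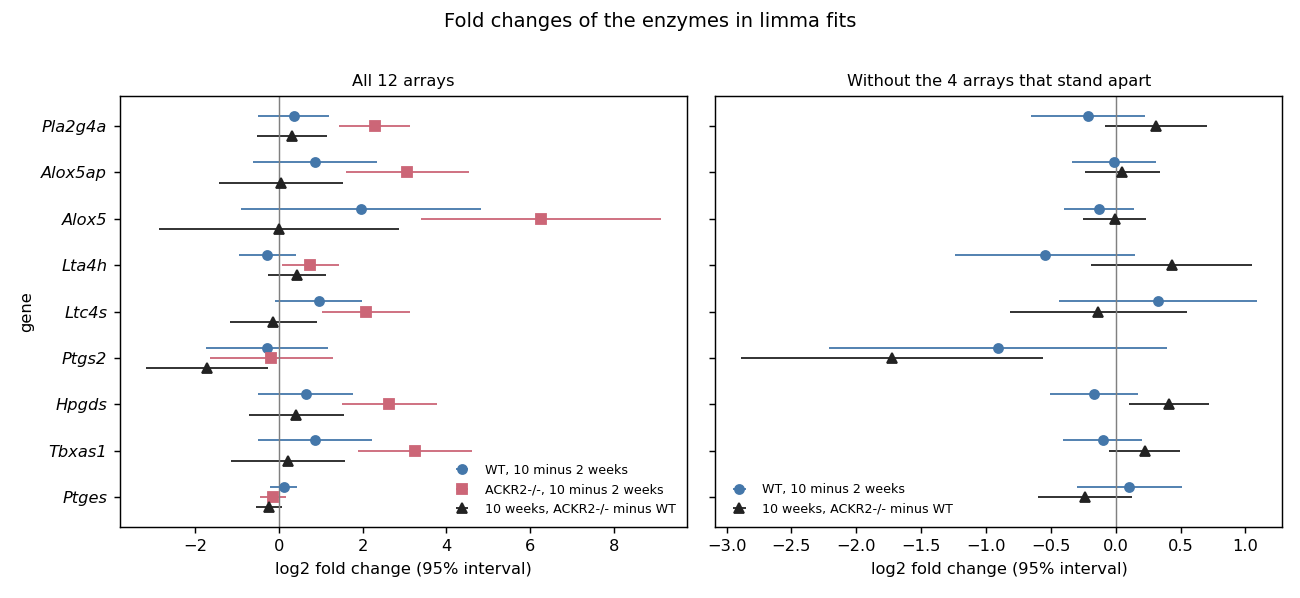
Log2 fold changes of the 9 enzymes with 95% intervals from limma. Left, all 12 arrays: 10 minus 2 weeks in wild type (circles) and ACKR2-/- (squares), and ACKR2-/- minus wild type at 10 weeks (triangles). Right, without the 4 arrays low in mast cell markers, on a narrower axis: Alox5 moves from 1.95 to -0.13 in wild type, and Ptgs2 at 10 weeks is at -1.72 in both.

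The third comparison sets ACKR2-/- against wild type at 10 weeks, where mast cell markers averaged 11.57 to 12.20 and 12.02 to 12.45. No enzyme was called with all 12 arrays or without the 4, and over all genes limma called 0% in both fits. At an unadjusted p under 0.05 stood 1 of the 9 (Ptgs2), against 7.85% of genes, and without the 4 arrays 2 of the 9 (Ptgs2 and Hpgds), against 12.9%. The median difference of the 9 was 0.05, and 0.01 for all genes. With signs dropped, the medians were 0.23 and 0.13.

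Ptgs2 averaged 9.10 ± 0.92 in wild type and 7.38 ± 0.76 in ACKR2-/- (SD, n = 3). The difference was -1.72 ± 0.66 (SE), or 3.30-fold lower, at a limma adjusted p of 0.570, and by size it ranked 120 among 19938 genes. Without the 4 arrays its 95% interval ran from -2.89 to -0.56, with a limma adjusted p of 0.265. Leaving out each array in turn gave differences from -2.15 to -1.23. Groups of this kind that do not overlap, lower in ACKR2-/-, made up 5.98% of all genes. Hpgds averaged 11.09 ± 0.11 against 10.68 ± 0.14, a difference of 0.41 ± 0.51 with all arrays and an interval from 0.10 to 0.72 without the 4, at a limma adjusted p of 0.288. Its arrays were wholly higher in ACKR2-/-, as were those of 8.61% of genes.

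Of the leukotriene enzymes, Alox5 and Alox5ap differed least between the 10-week genotypes. Without the 4 arrays Alox5 differed by -0.01 with a 95% interval from -0.25 to 0.23 and Alox5ap by 0.05 (-0.24 to 0.34). Pla2g4a differed by 0.31 (-0.08 to 0.70), Ltc4s by -0.13 (-0.81 to 0.55) and Lta4h by 0.43 (-0.19 to 1.05). In the prostanoid branch Tbxas1 differed by 0.22 (-0.05 to 0.50) and Ptges by -0.23 (-0.60 to 0.13). Lta4h is the only one of these 7 whose interval reaches a 2-fold change.

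At 2 weeks and with all arrays, 8 of the 9 enzymes lay lower on average in ACKR2-/- and none was called, with a lowest limma adjusted p of 0.225; limma called 0% of all genes. Of the 9, 7 had an unadjusted p under 0.05, as did 17.5% of all genes. Alox5 differed by -4.32 ± 1.29 (SE) and Ptgs2 by -1.82 ± 0.66. Wholly lower were 3 of the 9 (Alox5, Pla2g4a and Ptgs2), against 8.6% of genes, and none wholly higher, against 4.97%. For Alox5 wild type array 3, at 7.45, stood just above the ACKR2-/- arrays. Without that array 7 of the 9 were called lower, against 13.5% of genes lower, 10.2% higher and 23.8% in either direction: Alox5 (-6.40 ± 0.11), Tbxas1 (-3.12 ± 0.17), Alox5ap (-3.03 ± 0.44), Ptgs2 (-2.45 ± 0.61), Hpgds (-2.39 ± 0.14), Pla2g4a (-2.18 ± 0.17) and Ltc4s (-1.89 ± 0.31). Lta4h (-0.86 ± 0.30) was not called, and 8 of the 9 had an unadjusted p under 0.05, as did 33.8% of genes. These 8 lay wholly lower, as did 33.4% of genes (22.9% wholly higher). In that fit 2 arrays with mast cell averages of 12.43 and 12.28 are set against 3 with averages of 6.79 to 6.93, so genotype cannot be told apart from the difference in mast cell markers. Whether the change with time differed between the genotypes was tested as an interaction. None of the 9 passed with all arrays (6 at an unadjusted p under 0.05, against 11.4% of genes, and 0% called). Without wild type 2-week array 3, 6 passed, all higher, against 9.78% of genes called higher, 5.96% lower and 15.7% in either direction, with the same limit.

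Other genes of eicosanoid metabolism were examined on a list of 64, of which 58 were measured. On the ACKR2-/- arrays 12 of the 58 rose and 3 fell between 2 and 10 weeks, beside the 10.5% and 6.33% of all genes given above, with a median of 0.07. Genes that release, remodel or make arachidonic acid held most of them, with 7 of 17 higher and 1 lower. They included the fatty acid desaturases Fads2 (4.35 ± 0.91) and Fads1 (3.26 ± 0.54), which act in the making of arachidonic acid. The acyltransferase Lpcat2 rose too (2.40 ± 0.56). The secreted phospholipase Pla2g2d fell by 1.83. Limma adjusted p for these 4 genes lay between 0.0137 and 0.0311.

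Among 14 eicosanoid receptors 2 rose and 1 fell, near the shares of 10.5% higher and 6.33% lower over all genes. Ptger3, a receptor for prostaglandin E2, rose by 4.56 ± 0.86, Ltb4r1, the high-affinity receptor for leukotriene B4, rose by 2.28 ± 0.43, and Tbxa2r, the thromboxane receptor, fell by 1.75 (limma adjusted p from 0.0137 to 0.0423). Ptger3 read 11.49 and 11.41 on wild type 2-week arrays 1 and 2, 6.66 to 7.38 on the 4 arrays low in mast cell markers and 11.22 to 11.86 at 10 weeks. It thus followed the same split as Alox5. Hpgd, which inactivates prostaglandins, went the other way: it fell by 3.77, reading 10.81 to 11.31 on the 4 arrays and at most 8.70 on the other 8. In the lists of breakdown and of export and conversion, Ptgr2 (1.10 ± 0.22), Abcc1, the exporter of leukotriene C4 (1.14 ± 0.27), and Dpep2, a dipeptidase that acts on leukotriene D4 (2.14 ± 0.54), rose, with limma adjusted p from 0.0141 to 0.0239. None of 6 other lipoxygenases, 6 other prostanoid synthases or 3 other glutathione transferases was called, the lowest limma adjusted p being 0.0510. At an unadjusted p under 0.05 stood 1, 3 and 2 of them, against 30.2% of all genes. Without wild type 2-week array 3 this comparison called 23 of the 58, 16 higher and 7 lower, against 14.4% and 10.6% of genes. Among those 3 lists it then called the lipoxygenase Alox8 (1.32 ± 0.22) and the transferase Mgst3 (0.64 ± 0.20) higher, and the synthases Ptgis (-0.80 ± 0.09) and Prxl2b (-0.69 ± 0.20) lower, with limma adjusted p from 0.000119 to 0.0410. As for the enzymes, the count for the 58 fell to 0 without ACKR2-/- 10-week array 2 or array 3, when limma called no gene at all.

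**Figure D3:**
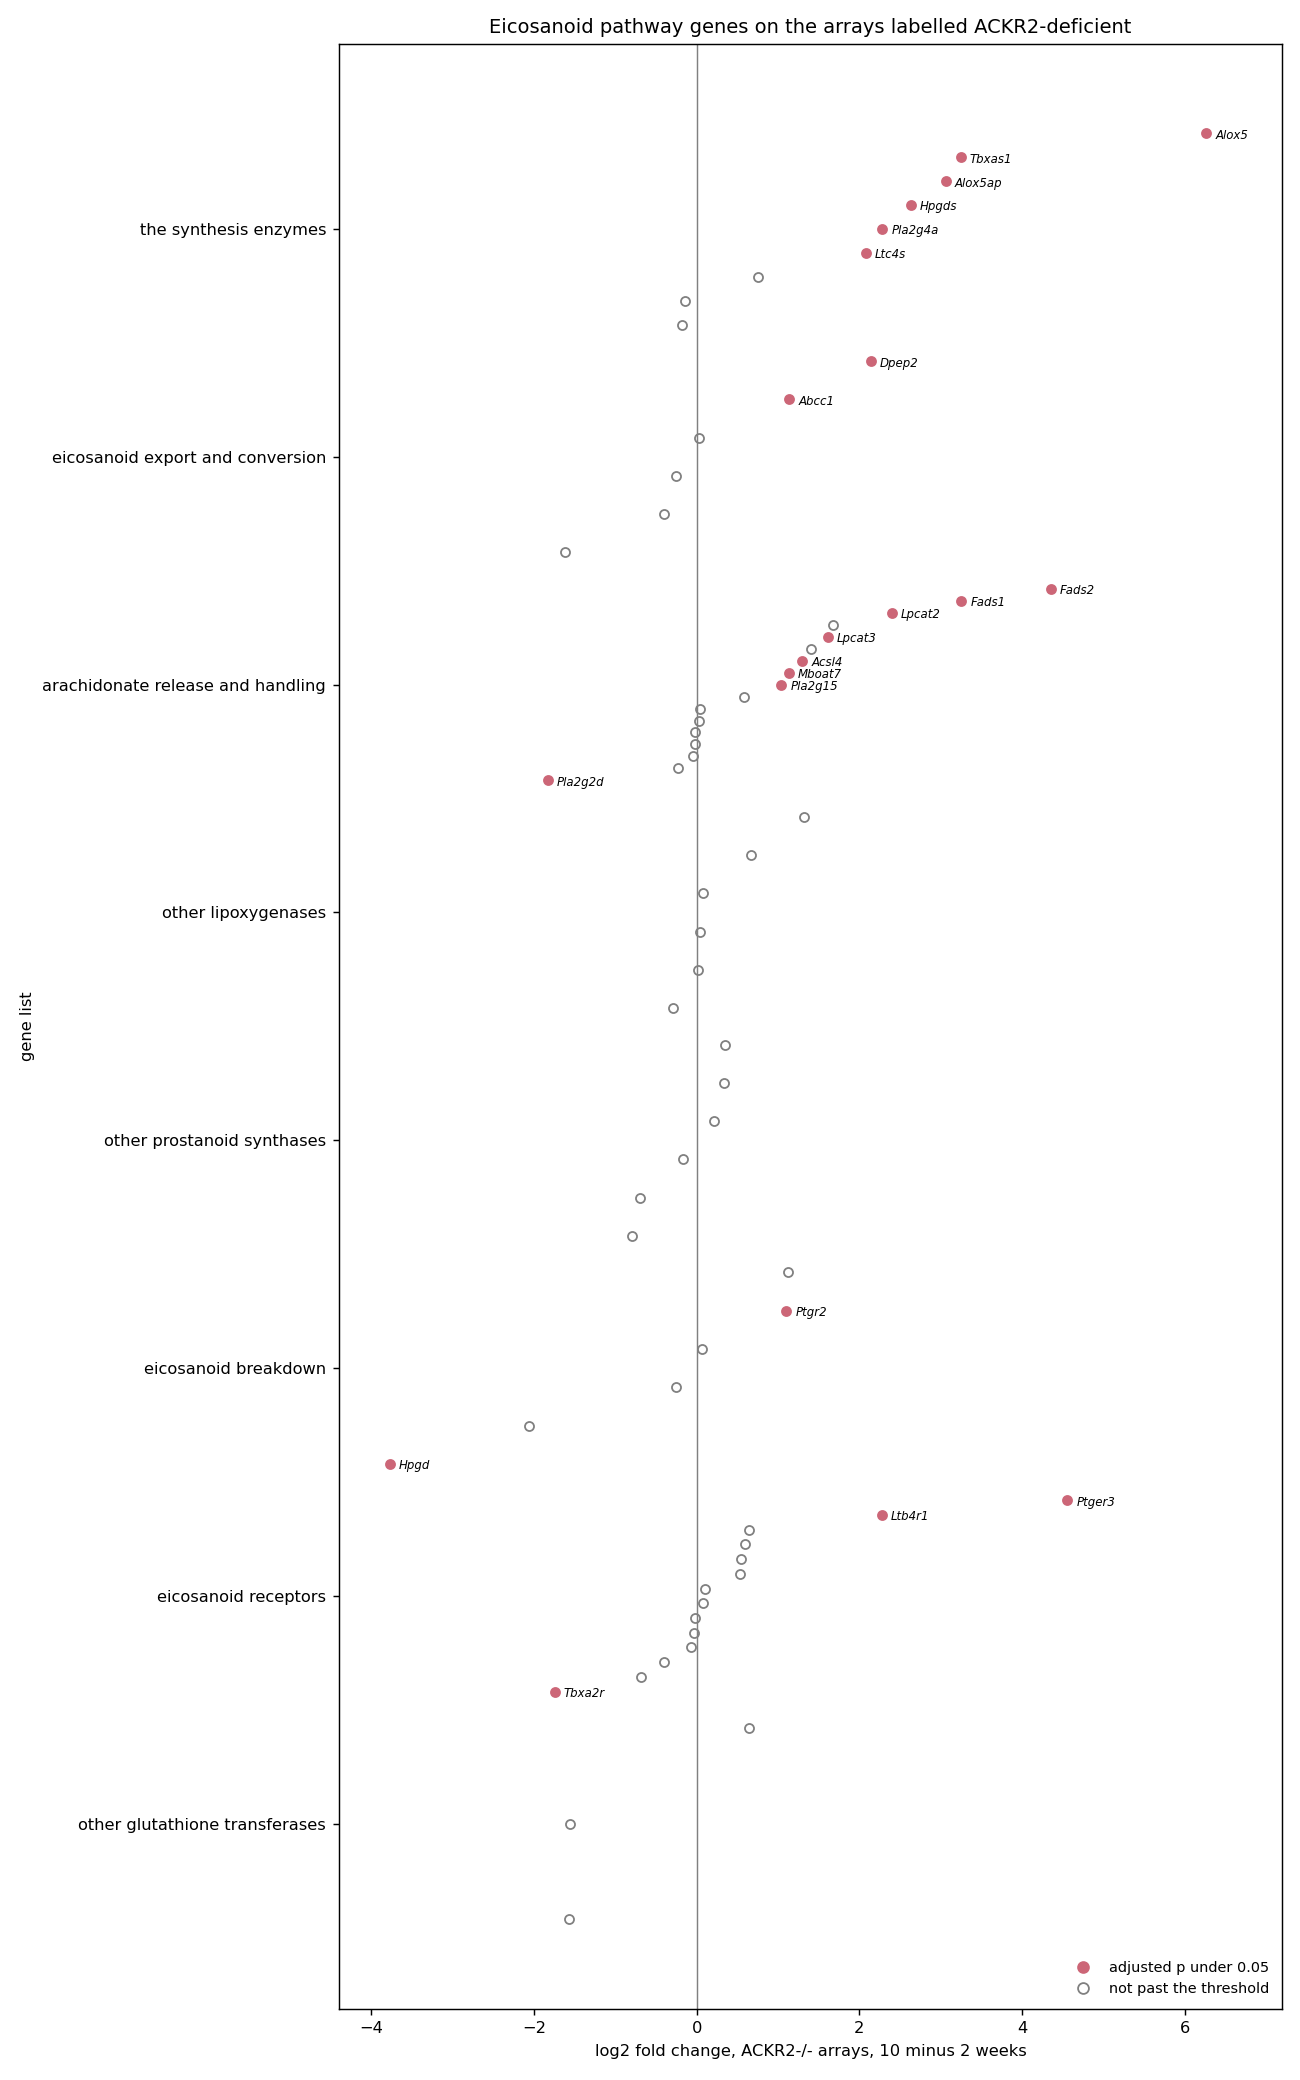
Log2 fold change between 10 and 2 weeks on the ACKR2-/- arrays for the 9 synthesis enzymes and 58 other eicosanoid genes, by list; each point is 1 gene, filled where the limma adjusted p is under 0.05. The enzymes reach 6.27 (Alox5), and the list of other lipoxygenases has no filled point.

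Of the 58, none was called in the wild type comparison of times or between the genotypes at either time with all arrays. At an unadjusted p under 0.05 stood 7 in the wild type comparison of times, 9 between the genotypes at 10 weeks, 21 between them at 2 weeks and 14 for the interaction, with the shares of all genes as given above. Without wild type 2-week array 3 limma called 24 of the 58 between the genotypes at 2 weeks, 6 higher and 18 lower, and 18 for the interaction, 12 higher and 6 lower, again beside the shares given above. Without the 4 arrays it called 0 between times in wild type, with 7 at an unadjusted p under 0.05, beside 7.14% of all genes. Between the genotypes at 10 weeks the same fit called 0 of the 58. There 14 had an unadjusted p under 0.05, beside 12.9% of all genes. With all arrays, the lowest p in the wild type comparison belonged to Ptger1, a prostaglandin E2 receptor (1.13 ± 0.27), and Pla2g12a, a secreted phospholipase (0.34 ± 0.10). At 2 weeks it belonged to Fads1 (-2.09 ± 0.54) and Ltb4r1 (-1.56 ± 0.43), and for the interaction to Pla2g12a (-0.57 ± 0.14) and Cysltr2, a receptor for cysteinyl leukotrienes (1.56 ± 0.48). At 10 weeks Mgst1, a membrane glutathione transferase, differed by -2.33 ± 0.62 and Pla2g12a by -0.38 ± 0.10, both at a limma adjusted p of 0.480. Over the 58, ACKR2-/- arrays at 10 weeks were wholly lower for 6 genes and wholly higher for 4, beside 5.98% and 8.61% of all genes.

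The ACKR2-/- 10-week arrays were not alike, and some of these genes showed it far more than the 5-lipoxygenase enzymes did. The genes in this paragraph were picked after their values were seen, for their wide range, and get no test. Alox15, the 12/15-lipoxygenase, read 9.51, 10.09 and 10.01 on the wild type 10-week arrays and 9.60, 7.22 and 7.03 on the ACKR2-/- ones. Cyp4f18, which inactivates leukotriene B4, read 10.77, 11.36 and 10.44, and then 10.31, 6.72 and 6.34. Anxa1, annexin A1, read 10.74, 11.64 and 10.73, and then 10.83, 7.87 and 9.36. In each case ACKR2-/- array 1 lay near the wild type arrays and arrays 2 and 3 below them. Mgst1 split in the same way (8.48, 6.57 and 6.38 in ACKR2-/-), but some other genes of wide range did not. Pla2g7, of the arachidonic acid list, read 12.14 to 12.57 in wild type and 12.68, 9.76 and 12.47 in ACKR2-/-. Hpgd read 6.13 to 6.49 in wild type and 6.54, 6.78 and 8.70 in ACKR2-/-. Among the ACKR2-/- arrays Ptgs2 was also highest on array 1, but at 8.23 it still lay below all wild type arrays (at least 8.27).

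Among markers of other cells, some split as Alox15 did and others did not. On ACKR2-/- array 1 monocyte and macrophage markers lay within the wild type range, while neutrophil and eosinophil markers lay below it. Fibroblast markers showed no such split. Monocyte and macrophage markers (6 genes) averaged 8.93, 10.44 and 9.46 on the wild type and 9.14, 7.29 and 7.16 on the ACKR2-/- 10-week arrays, with Adgre1 at 10.35, 11.21 and 10.70 and at 10.59, 7.60 and 6.85. Neutrophil markers (8 genes) averaged 9.47, 10.53 and 7.70 against 7.44, 6.84 and 6.72, eosinophil markers (4 genes) 9.01, 9.05 and 7.53 against 7.22, 6.97 and 6.91, and megakaryocyte and platelet markers (4 genes) 9.75, 11.53 and 10.25 against 10.32, 8.75 and 8.83. Basophil markers (4 genes) averaged 12.10 to 12.36 against 11.73, 9.34 and 9.38, and fibroblast markers (5 genes) 7.07 to 7.74 against 7.41 to 7.51. The part of these cells in the Ptgs2, Alox15, Cyp4f18 and Anxa1 signals was not tested.

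**Figure D4:**
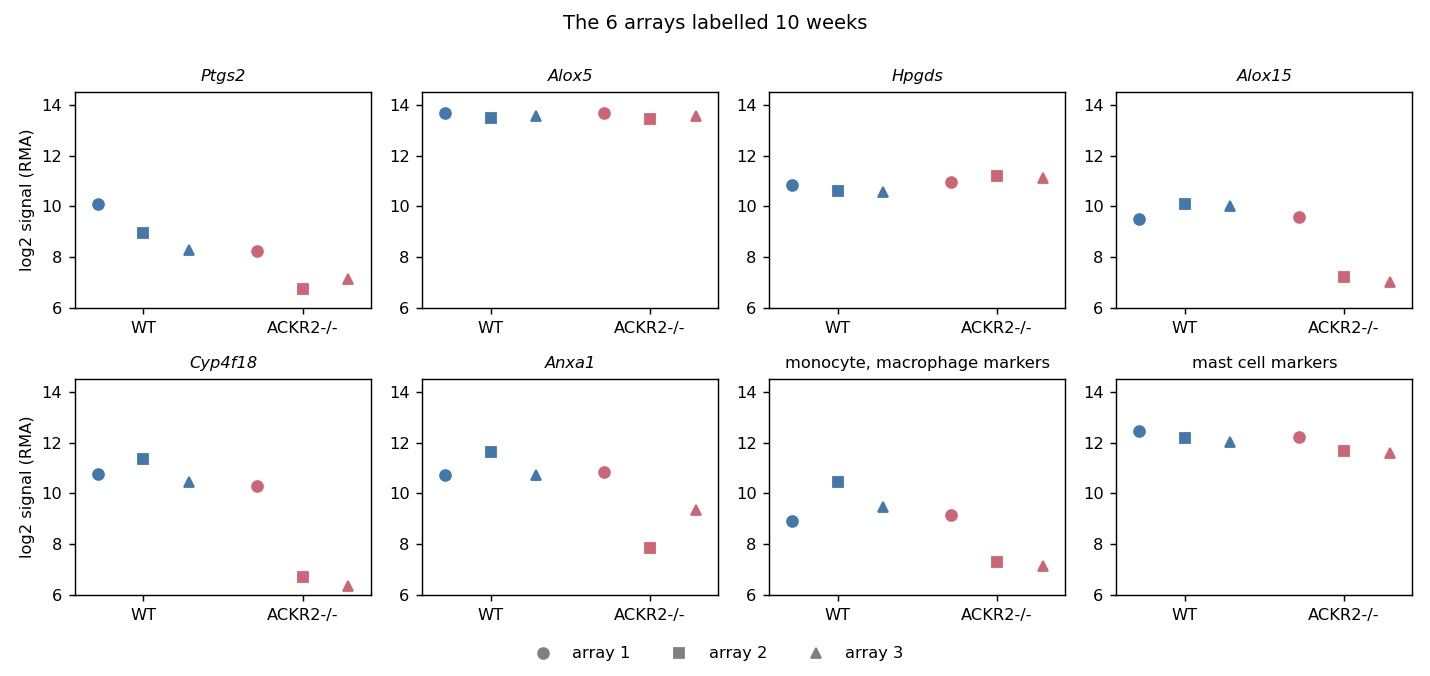
Log2 signal on the 6 arrays labelled 10 weeks for Ptgs2, Alox5, Hpgds, Alox15, Cyp4f18 and Anxa1, and the mean of the monocyte and macrophage and of the mast cell markers; each point is 1 array. Alox5 stays between 13.43 and 13.66, while Alox15 reads 7.22 and 7.03 on ACKR2-/- arrays 2 and 3 and at least 9.51 on the other 4.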

How the data were processed

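The authors deposited 1 log2 signal per probe set and array, 35399 probe sets on 12 arrays, which the submitters' processing notes tie to Partek 6.5 and RMA. This method subtracts background, equalises the arrays and summarises probes, and it leaves no detection calls. Values ran from 2.66 to 14.91 and array medians from 7.76 to 7.90. The genome build is not given in the sources used here. The number of arrays limits the precision.

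A platform annotation gave 21789 probe sets 1 symbol. For each gene the probe set with the highest mean was kept (19938 genes). A model of 4 group means (limma 3.58.1, R 4.3.3) used the 12 arrays together, with 8 residual degrees of freedom, Benjamini-Hochberg adjustment over all genes and a threshold of 0.05. The fit was tested on simulated data. The enzymes and lists were chosen with earlier results of these data known. Named are Ackr2, the enzymes, defining markers and, per comparison, up to 4 called genes of each list of other genes with the largest change, or, where none was called, the 2 of all lists with the lowest p. The genes picked for their range at 10 weeks lie outside this rule.

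Replicate numbers recur in each group. Over genes, deviations from the group means of same-numbered arrays correlated at 0.166 to 0.359 between the wild type groups, and at -0.308 to 0.062 in the other comparisons. By a preset minimum of 0.1 the numbers count as pairs only in wild type. Promoter sequences are from RefSeq.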

Additional observations from a re-analysis of the deposited data

How the results depend on the processing

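The alternatives were array weights, only the groups compared, the replicate number as a block, each array left out, the 4 arrays left out, the mean of a gene's probe sets, only genes above the median level, array medians subtracted and another variance prior. In addition, 3 fits were chosen after seeing the data: a block in the wild type arrays alone, the same without 2-week array 3, and the 10-week arrays without ACKR2-/- array 1. The gene-by-gene weights were also chosen then. Apart from array weights and left-out arrays, every alternative run gave the same number of enzymes called in each comparison, 6 between times in ACKR2-/- and 0 in the other 4. With the replicate block it was also 6 and 0, so the block changed no call, and the blocks in the wild type arrays alone gave 0. With all arrays and equal weights limma called 16.8% of all genes between times in ACKR2-/- and 0% in each other comparison. Leaving out 1 array at a time gave 0 to 6 called between times in ACKR2-/-, 0 to 7 between the genotypes at 2 weeks and 0 to 6 for the interaction. The counts of 6, 7 and 6 came without wild type 2-week array 3, when limma called 25%, 23.8% and 15.7% of all genes. Where the count between times in ACKR2-/- was 0, limma called 0 of all genes.

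Array weights called 7 enzymes between times in ACKR2-/-, 4 between the genotypes at 10 weeks (Ptgs2, Ptges, Pla2g4a and Lta4h), 8 between them at 2 weeks and 8 for the interaction. Of all genes it called 44.7%, 26.9%, 42% and 36.8%, in that order. The default weights did not converge and gave wild type 10-week array 2 a weight of 0, while the gene-by-gene weights used here gave it 4.19, the highest. Signs turned only for differences that were not called with all arrays and equal weights. In wild type between times, leaving out the 4 arrays gave -0.13 for Alox5, -0.014 for Alox5ap, -0.17 for Hpgds, -0.21 for Pla2g4a and -0.10 for Tbxas1, the block without 2-week array 3 gave -0.12 for Alox5, -0.11 for Hpgds, -0.11 for Pla2g4a and -0.074 for Tbxas1, and array weights gave -0.15 for Hpgds, -0.25 for Pla2g4a and -0.052 for Tbxas1. Leaving out 1 array gave ranges of -0.13 to 3.00 for Alox5, -0.014 to 1.37 for Alox5ap, -0.17 to 1.12 for Hpgds, -0.21 to 0.68 for Pla2g4a, -0.10 to 1.37 for Tbxas1 and -0.91 to 0.23 for Ptgs2. For Ptgs2 it gave -0.63 to 0.13 between times in ACKR2-/- and -0.41 to 0.73 for the interaction.

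Between the genotypes at 10 weeks array weights gave 0.013 for Alox5, -0.097 for Alox5ap and 0.24 for Ltc4s, and the fit without ACKR2-/- array 1 gave 0.19 for Ltc4s. Leaving out 1 array gave -0.061 to 0.051 for Alox5 and -0.40 to 0.19 for Ltc4s. At 2 weeks Ptges was at -0.011 with array weights, at -0.055 with medians subtracted and between -0.041 and 0.084 with 1 array left out. The cause of these changes was not tested. Subtracting the array medians moves all genes up by 0.10 between times in ACKR2-/-, where the shift of the medians was -0.10. Signal over background was not examined, as RMA values carry no detection calls.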
